A study of Mus musculus with 8 samples.

Results

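Inhibitory checkpoint receptors were followed across clonally expanded and polyclonal CD8 T cells of old mice. The genes were Pdcd1, Ctla4, Btla, Lag3, Havcr2, Tigit and Cd160, together with Cd200 and its receptor gene Cd200r1. They were chosen by gene symbol, and all array probe sets annotated to 1 of these 9 symbols were taken. Of the 9 genes, 8 had a probe set, giving 12 of the 45101 probe sets on the array. Tigit was not analysed here. The members that passed the filter on dim signals were 9 probe sets of 7 genes: Pdcd1, Ctla4, Btla, Havcr2, Cd200, Cd200r1 and 3 of the 4 Cd160 probe sets.

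Checkpoint receptors sit in the T cell membrane and lower the response to the T cell receptor when they bind a ligand on another cell. PD-1, the product of Pdcd1, recruits phosphatases to the receptor complex, while CTLA-4 takes the ligands CD80 and CD86 away from the activating receptor CD28. Several of these genes are switched on by T cell receptor signals through NFAT and AP-1 factors. They stay high in T cells that meet their antigen for a long time, a state described as exhaustion.

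The samples came from 4 aged female mice, each giving a clonal expansion and a polyclonal memory sample of its own. Expansion 1, of the integrin alpha4-high subclass, and its partner came from a 20-month-old C57BL/10SnJ mouse. Expansions 2, 3 and 4, of the alpha4-low subclass, came with their partners from a 20-month-old C57BL/10SnJ, a 23-month-old C57BL/10SnJ and a 23-month-old B10.BR mouse. Cells of spleen and lymph nodes were sorted as CD8+ CD122+ MHC II- and frozen without culture. Expansions 1 to 4 were positive for the T cell receptor chains Vb3, Vb8.1/8.2, Vb8.3 and Vb14, and each partner was negative for the chain of its own mouse. Sort purity was 91, 95, 96 and 98% in expansions 1 to 4, against 97, 75, 66 and 97% in polyclonal samples 1 to 4. Each expansion is taken as 1 clone of 1 mouse, as its label names it, but clonality was not tested here. A polyclonal sample is not from a young or clone-free animal, and the alpha4-high subclass rests on a single mouse.

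Each array gave a linear MAS5 intensity per probe set, with a 2% trimmed mean of 500 on all 8 arrays. Median signal was between 46.5 and 75.1, and background, the 95th percentile of 27 bacterial probe sets with no spiked target, was between 33.7 and 61.9. All 7 CD8 T cell markers were above background on all 8 arrays. Itga4, which encodes integrin alpha4, had signals of 11824 in expansion 1 and 197, 435 and 120.02 in expansions 2 to 4, against 3182, 2676, 8221 and 1559 in polyclonal samples 1 to 4. The subclass labels thus fit the gene they are named for. The number of arrays limits the precision throughout. Because these are bulk samples, fewer cells expressing a gene and less RNA per cell cannot be told apart.

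Promoter sequences of the members whose signals differed most, and of Btla, which ran the other way, are given for orientation, since NFAT and AP-1 sites have been described at several checkpoint genes. RefSeq sequences on GRCm38.p6 were matched for 7 of the 9 genes, with 8 promoters. The 250 bases upstream of the start are printed, with capitals marking GGAAA, the core of NFAT sites, or TGANTCA, an AP-1 site, on either strand. The 2 patterns cannot overlap. The Pdcd1 window is chr1:94052554-94052803 on the minus strand, with 2 GGAAA copies that read TTTCC here and lie side by side. The Ctla4 window is chr1:60908775-60909024 on the plus strand, with 1 GGAAA copy. The Havcr2 window is chr11:46454681-46454930 on the plus strand, with 1 TGANTCA copy. The Btla window is chr16:45224087-45224336 on the plus strand and holds no copy of either. Of the windows not printed, that of Cd200, also lower in all 3 alpha4-low pairs, holds no copy of either. A Cd160 window holds 1 GGAAA copy and another holds none, and the Tigit window holds 2. Whether these patterns go with the signal differences was not tested.
Pdcd1: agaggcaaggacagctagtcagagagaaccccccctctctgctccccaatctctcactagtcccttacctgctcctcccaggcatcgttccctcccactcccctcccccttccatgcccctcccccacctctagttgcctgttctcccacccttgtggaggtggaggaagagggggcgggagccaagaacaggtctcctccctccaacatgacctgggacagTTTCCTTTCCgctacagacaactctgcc
Ctla4: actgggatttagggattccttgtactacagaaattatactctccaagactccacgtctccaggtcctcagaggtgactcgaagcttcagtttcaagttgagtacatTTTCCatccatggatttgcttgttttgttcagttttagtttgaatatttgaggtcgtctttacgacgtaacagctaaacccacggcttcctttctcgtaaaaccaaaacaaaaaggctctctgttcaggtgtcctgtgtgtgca
Havcr2: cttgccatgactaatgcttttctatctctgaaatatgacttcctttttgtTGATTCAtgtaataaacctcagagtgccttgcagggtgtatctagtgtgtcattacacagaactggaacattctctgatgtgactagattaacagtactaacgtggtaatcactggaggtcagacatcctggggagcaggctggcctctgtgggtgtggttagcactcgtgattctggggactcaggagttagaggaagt
Btla: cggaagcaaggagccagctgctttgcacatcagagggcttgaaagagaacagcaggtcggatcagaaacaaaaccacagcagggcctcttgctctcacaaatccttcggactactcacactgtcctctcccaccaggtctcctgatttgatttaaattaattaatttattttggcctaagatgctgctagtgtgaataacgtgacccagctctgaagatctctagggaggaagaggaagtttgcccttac

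Of 32851 promoters of the same length, 55.6% held at least 1 GGAAA, 21.4% held 2 or more, and 6.75% held a TGANTCA. A copy of either pattern is a description of these letters, not a bound site. In the same annotation Ctla4 lies between Cd28 and Icos, and Btla next to Cd200, among protein-coding genes.

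The 3 genes that set the alpha4-low expansions apart most clearly were Pdcd1, Ctla4 and Havcr2. In each, all 3 alpha4-low expansions lay below all 4 polyclonal samples, and expansion 1 lay above them. That arrangement was held by 3 of the 9 member probe sets, against 0.737% of the 22518 tested. The fitted log2 differences of the alpha4-low pairs were between -4.08 and -2.40, but at the threshold of an adjusted p of 0.05 in limma no member was called.

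Pdcd1, the PD-1 gene, measured by 1449835_at, had a signal of 673 in expansion 1, against 176 in its partner. In expansions 2, 3 and 4 it had 7.05, 3.11 and 43.7, against 148, 415 and 177 in their partners. Expansion 1 was thus the brightest of the 8 arrays and the alpha4-low expansions the 3 dimmest, and no alpha4-low expansion overlapped the polyclonal samples. Only expansion 4 of the 3 alpha4-low expansions was above background, and all 4 polyclonal samples were. The partner signal was at least 2.86-fold higher than expansion 2, at least 6.70-fold higher than expansion 3 and 4.05-fold higher than expansion 4, while expansion 1 was 3.83-fold above its own partner. The mean signal was 17.9 ± 22.4 in alpha4-low expansions and 247 ± 147 in their partners (SD, n = 3 each). The log2 difference over the alpha4-low pairs was -3.75 with an SE of 0.66, a limma adjusted p of 0.0696 and the same sign in 3 of 3 pairs. Against the alpha4-high pair it differed by -5.66 with an SE of 1.31 (limma adjusted p = 0.178).

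Ctla4, whose product competes with CD28, had the same arrangement of groups. By 1419334_at it had 4214 in expansion 1, against 932 in its partner. In expansions 2, 3 and 4 it had 109, 10.4 and 82.1, against 748, 2134 and 454 in their partners. Expansions 2 and 4 were dim but above background, and expansion 3 was not above it. The partner's signal was 6.85-fold higher in pair 2, at least 34.5-fold higher in pair 3 and 5.53-fold higher in pair 4, and expansion 1 was 4.52-fold above its partner. The mean signal was 67.2 ± 51.0 in alpha4-low expansions and 1112 ± 897 in their partners (SD, n = 3 each). The log2 difference was -4.08 with an SE of 0.73 over the alpha4-low pairs (limma adjusted p = 0.0754; lower in 3 of 3). Its difference from the alpha4-high pair was -6.25 with an SE of 1.46 (limma adjusted p = 0.180).

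Havcr2 encodes TIM-3, a receptor of the TIM family found on activated and exhausted T cells. Its signal by 1451584_at was 612 in expansion 1, against 97.0 in its partner. It was 10.1, 87.3 and 24.7 in expansions 2, 3 and 4, against 122, 273 and 167 in their partners. Only expansion 3 of the alpha4-low expansions was above background, unlike for Pdcd1 and Ctla4, where expansion 3 was the dimmest. Expansion 1 was 6.32-fold above its partner, the largest such ratio among the members. The partner was at least 2.37-fold higher in pair 2, 3.13-fold higher in pair 3 and at least 4.97-fold higher in pair 4. The log2 difference was -2.40 with an SE of 0.50 over the alpha4-low pairs (limma adjusted p = 0.205; lower in 3 of 3). The difference from the alpha4-high pair was -5.0 with an SE of 1.0, and its limma adjusted p of 0.0961 was the lowest of any member in that comparison.

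**Figure D1:**
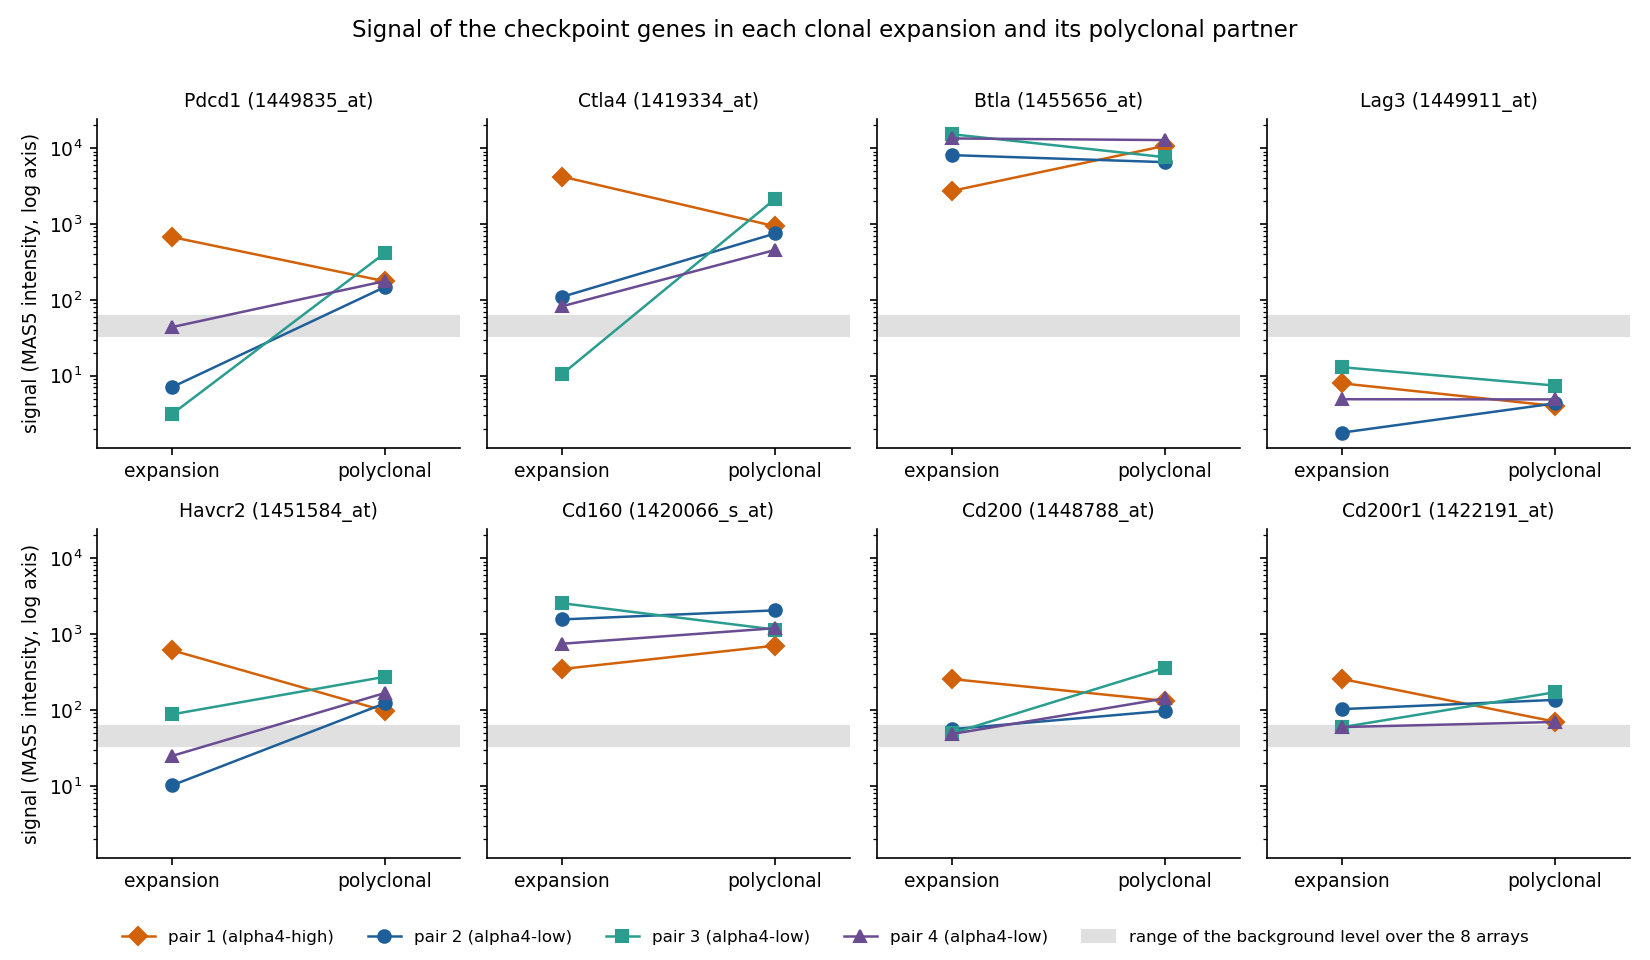
Signal (MAS5 intensity, log axis) of the brightest probe set of 8 genes on each array, with lines joining an expansion to its polyclonal partner and a grey band for the range of background over the 8 arrays. For Pdcd1, Ctla4 and Havcr2 the alpha4-high expansion is the highest point (673, 4214 and 612) and the 3 alpha4-low expansions are the lowest, while for Btla the alpha4-high expansion is the lowest (2725).

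Purity of the sort differed within the pairs as well. Polyclonal samples 2 and 3 were 75 and 66% pure, and Cd4 was above background in those samples alone, at 43.9 and 101. The 43.9 was barely above that array's background of 43.6. The other CD4 T cell markers did not share this arrangement. Zbtb7b had 146 and 68.6 in polyclonal samples 2 and 3, against 95.9 and 125 in expansions 2 and 3. Cd40lg had 44.3 and 131 in the same polyclonal samples, against 82.9 and 66.3 in those expansions. Foxp3, which marks regulatory T cells that carry CTLA-4, had 71.3 in expansion 1 and 95.4, 70.8 and 41.6 in expansions 2 to 4, against 38.2, 42.2, 119 and 59.0 in polyclonal samples 1 to 4. In pair 4, where both samples were at least 97% pure, the log2 difference was -1.90 for Pdcd1 and -2.40 for Ctla4, and for Havcr2, not above background in expansion 4, the partner was at least 4.97-fold higher. Pair 4 is a single pair from the only B10.BR mouse, and its expansion array had a different scanner record. Purity, strain and array handling cannot be told apart in it.

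With purity as a covariate, the alpha4-low difference was -1.61 for Pdcd1 and -1.64 for Ctla4 (limma adjusted p = 1.0 for both, with unadjusted p of 0.130 and 0.0598). That of Havcr2 was -2.82, larger in size than the -2.40 without the covariate (limma adjusted p = 0.918). The difference between subclasses was then -2.77 for Pdcd1, -2.95 for Ctla4 and -5.56 for Havcr2. This fit spends a further coefficient on the same arrays, and pair 1 has a coefficient of its own. The purity slope and the alpha4-low difference therefore both rest on the few alpha4-low pairs, of which only pair 4 had similar purity in both samples. Leaving out pair 3 gave -2.78 for Pdcd1, -2.56 for Ctla4 and -2.81 for Havcr2, and all 3 then passed (limma adjusted p = 0.00576, 0.000314 and 0.0154), in a fit that called 0.591% of all tested probe sets. Leaving out pair 4, whose expansion array also had a different scanner record, gave -4.68 for Pdcd1 and -4.92 for Ctla4, both past the threshold (limma adjusted p = 4.56e-07 and 9.14e-11). Havcr2 was then at -2.33 and did not pass (limma adjusted p = 0.0723), and 0.657% of all probe sets were called. Calls were therefore more frequent over the whole array in both of these fits, 133 and 148 against 12 with all pairs. Each of these fits has fewer alpha4-low pairs and fewer residual degrees of freedom than the fit with all pairs. Their p-values lean more on the variance shared across probe sets, so a smaller one is not stronger evidence.

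Several of these signals were under background, so the fitted differences are not measured sizes there. With signals under background raised to it, a setting chosen after seeing the data, the alpha4-low difference was -2.09 for Pdcd1 (limma adjusted p = 0.128), -3.45 for Ctla4 (limma adjusted p = 0.00205) and -1.73 for Havcr2 (limma adjusted p = 0.323). Ctla4 passed in that fit, which called 0.124% of all probe sets.

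Summed signals of marker genes of other cells overlapped between the 3 alpha4-low expansions and the 3 partners in every list, but the NK cell list was lower in each alpha4-low pair. The 6 B cell markers summed to 688 to 1317 in alpha4-low expansions and 604 to 1199 in partners. The 3 CD4 T cell markers summed to 182 to 304 in alpha4-low expansions and 177 to 301 in partners, with Cd4 itself not above background in any expansion. The 3 NK cell markers summed to 1931, 301 and 3818 in expansions 2 to 4, against 7118, 1671 and 10849 in their partners, and to 5894 in expansion 1, against 2692 in its partner. That is the arrangement of Pdcd1, Ctla4 and Havcr2 within pairs. Most of the sum was Klre1, a lectin-like receptor gene, with an alpha4-low difference of -2.47 (limma adjusted p = 0.121), while Gzmm differed by -0.35 and Ncr1, which defines NK cells, was not above background on any array. The 5 monocyte and macrophage markers summed to 1368 to 2169 in alpha4-low expansions and 664 to 1756 in partners, and the 4 dendritic cell markers to 208 to 1054 in alpha4-low expansions and 435 to 734 in partners. Plasma cell markers summed to 265 to 5431 in alpha4-low expansions and 377 to 856 in partners. Neutrophil and mast cell markers summed to 604 to 7229 in alpha4-low expansions and 723 to 4495 in partners, and erythroid markers to 14.8 to 52.6 in alpha4-low expansions and 17.1 to 95.6 in partners. The part of other cells in the checkpoint differences was not tested, and the purity covariate rests on too few pairs to measure it.

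Btla ran the other way. The receptor it encodes binds HVEM, a ligand on many blood cells, and is known on resting lymphocytes as well as activated ones. Its signal by 1455656_at was 2725 in expansion 1, against 10710 in its partner. It was 8065, 15208 and 13378 in expansions 2, 3 and 4, against 6519, 7577 and 12727 in their partners. Every alpha4-low expansion was above its own partner, but the groups overlapped, and expansion 1 was the dimmest of the 8 arrays at 3.93-fold below its partner. The mean was 12217 ± 3710 in alpha4-low expansions and 8941 ± 3321 in their partners (SD, n = 3 each). The log2 difference over alpha4-low pairs was 0.46 with an SE of 0.36 (limma adjusted p = 0.989), with ratios of 1.24, 2.01 and 1.05 in pairs 2 to 4. With purity as a covariate its sign turned, to -0.041. The difference from the alpha4-high pair was 2.43 with an SE of 0.72 (limma adjusted p = 0.405). Btla was the single member with a positive difference between subclasses at an unadjusted p under 0.05.

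Cd160 encodes another HVEM-binding receptor, known on NK cells and memory CD8 cells, and its 4 probe sets disagreed. The brightest, 1420066_s_at, had 346 in expansion 1, against 702 in its partner, and 1557, 2548 and 745 in expansions 2 to 4, against 2052, 1146 and 1194 in their partners. Those values overlapped, with pair 3 alone of the alpha4-low pairs higher in the expansion. The probe set 1456847_at had 158 in expansion 1, against 359 in its partner, and 569, 460.5 and 384 in expansions 2 to 4, against 338, 278 and 374 in their partners. All alpha4-low expansions were above all 4 polyclonal samples by that probe set and expansion 1 below them, an arrangement held by 1 of the 9 members and 0.555% of the tested probe sets. The log2 difference over alpha4-low pairs was 0.50 with an SE of 0.41 (limma adjusted p = 0.989), and 0.03 for 1420066_s_at with an SE of 0.46 (limma adjusted p = 0.999).

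Another Cd160 probe set, 1420396_at, had 109 in expansion 1, against 62.8 in its partner, and 115, 243 and 71.9 in expansions 2 to 4, against 147, 166 and 77.1 in their partners. Its alpha4-low difference was 0.03, and it was -0.26 with purity as a covariate and -0.22 without pair 3. The sign of 1420066_s_at turned in the same settings, to -0.94 and -0.54. The dim 1420067_at, not tested, had 27.5 in expansion 1, against 53.9 in its partner, and 77.2, 71.2 and 31.9 in expansions 2 to 4, against 47.2, 37.4 and 10.6 in their partners. No direction for Cd160 is common to its probe sets.

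Lag3, encoding a receptor for MHC class II, was measured by 1449911_at and was not above background on any array. Its signals were 7.93 in expansion 1 and 1.78, 13.0 and 4.90 in expansions 2 to 4, against 4.00, 4.32, 7.42 and 4.87 in polyclonal samples 1 to 4. No fold is given for it. Over the 12 member probe sets and 8 arrays, 74 of 96 values were above background.

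The CD200 ligand and its receptor form an inhibitory pair, and the receptor is best known on myeloid cells. By their brightest probe sets both genes were lower in every alpha4-low expansion than in its partner. Cd200, by 1448788_at, had a signal of 255 in expansion 1, against 132 in its partner, and 55.7, 49.1 and 48.2 in expansions 2 to 4, against 97.4, 361 and 142 in their partners. The alpha4-low groups did not overlap, and the expansions were close to one another at 51.0 ± 4.13, against 200.03 ± 141 in the partners (SD, n = 3 each). Background was 51.7, 61.9 and 33.7 on the arrays of expansions 2 to 4. The small SD thus describes values near background. Expansion 3 was not above background, so the partner was at least 5.83-fold higher in pair 3, and 1.75-fold and 2.94-fold higher in pairs 2 and 4. The alpha4-low log2 difference was -1.66 with an SE of 0.51 (limma adjusted p = 0.777).

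Cd200r1, measured by 1422191_at, had 256 in expansion 1, against 70.0 in its partner, and 102, 59.2 and 59.5 in expansions 2 to 4, against 136, 171 and 69.4 in their partners. Expansion 1 was the brightest array, but the alpha4-low groups overlapped. The log2 difference was -0.68 with an SE of 0.49 over the alpha4-low pairs (limma adjusted p = 0.989), and -2.48 with an SE of 0.99 against the alpha4-high pair (limma adjusted p = 0.628). The second probe set, 1439703_at, was dim and not tested, with 63.6 in expansion 1, against 67.9 in its partner, and 33.6, 38.1 and 49.6 in expansions 2 to 4, against 10.7, 74.8 and 37.6 in their partners. By that probe set expansion 4 was at least 1.21-fold above its partner, the partner of expansion 3 at least 1.21-fold above expansion 3, and both samples of pair 2 were not above background.

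**Figure D2:**
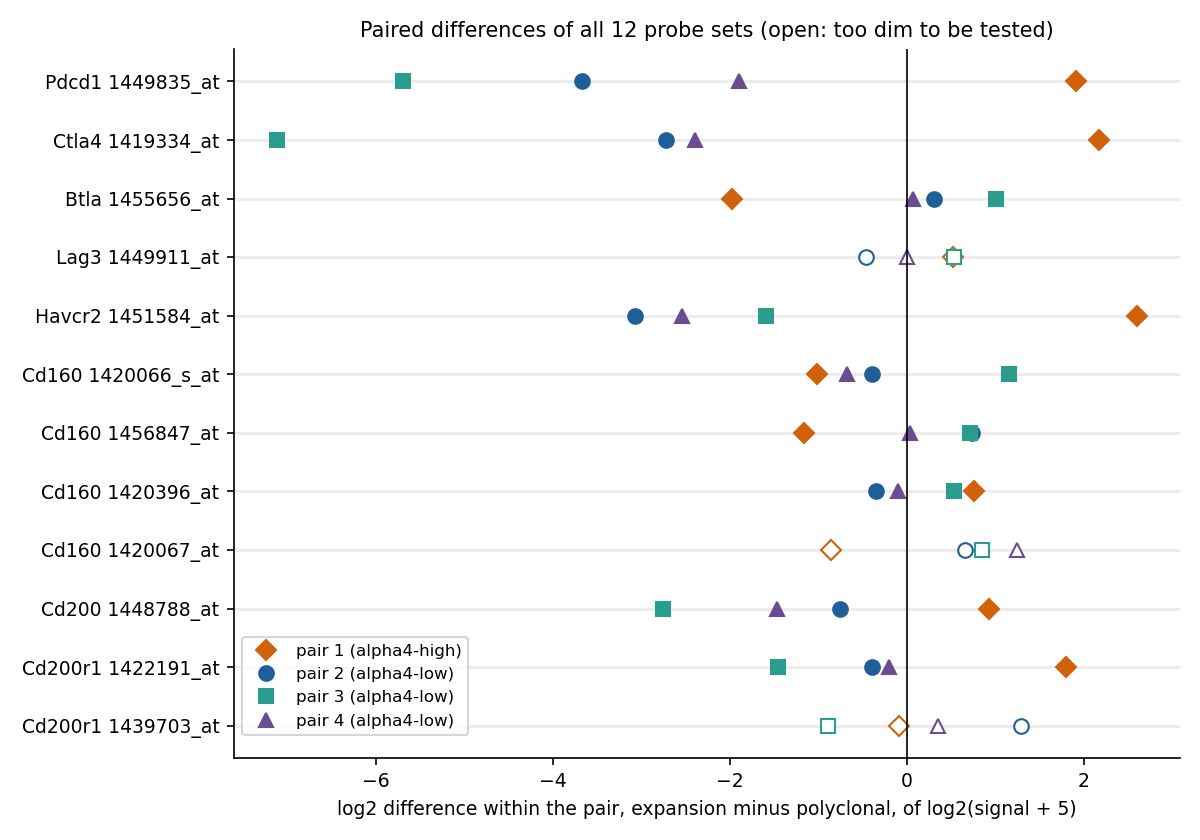
Log2 difference, expansion minus polyclonal, for each member probe set and mouse pair, with diamonds for the alpha4-high pair, other shapes for the 3 alpha4-low pairs and open symbols for probe sets too dim to be tested. Ctla4 is at 2.17 in pair 1 and at -2.72 and -2.40 in pairs 2 and 4 (its expansion 3 was not above background, so the point of pair 3 is not a measured size), and Btla at -1.97 in pair 1 and 1.0 in pair 3.

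Counted over the 9 tested probe sets, 0 passed in the alpha4-low comparison, where 0.0533% of all tested probe sets did (0.0488% lower, 0.00444% higher). At an unadjusted p under 0.05 in limma, 4 were lower (Pdcd1, Ctla4, Havcr2 and Cd200) and 0 higher, against 3.91% lower and 1.2% higher of all probe sets (5.11% together). At an adjusted p under 0.10, Pdcd1 and Ctla4 passed, against 0.164% of all. By sign, 5 were lower in all 3 alpha4-low pairs (background 15.0%) and 2 higher in all 3 (background 9.99%). Non-overlap with the 3 partners was found for 4 on the lower side (background 4.92%) and 1 on the higher side (background 3.19%). The median log2 difference of the members was -0.68, against -0.07 over all tested probe sets.

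The difference between the alpha4-low pairs and the alpha4-high pair gave 0 member calls, where 0.0533% of all probe sets were called (0.0222% lower, 0.0311% higher). At an unadjusted p under 0.05 in limma, 5 were lower and 1 higher, against 4.06% and 2.5% of all probe sets (6.57% together), and at an adjusted p under 0.10 Havcr2 alone passed (background 0.302%). Of the 9, 5 were lower in all alpha4-low pairs and higher in pair 1 (background 8.96%): Pdcd1, Ctla4, Havcr2, Cd200 and Cd200r1. The 2 with the opposite arrangement (background 5.2%) were Btla and Cd160 1456847_at. Expansion 1 was the highest of the 8 arrays for 4 members (background 11.6%) and the lowest for 3 (background 18.3%). This comparison has no replicate on the alpha4-high side, so its spread is taken from the alpha4-low pairs.

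**Figure D3:**
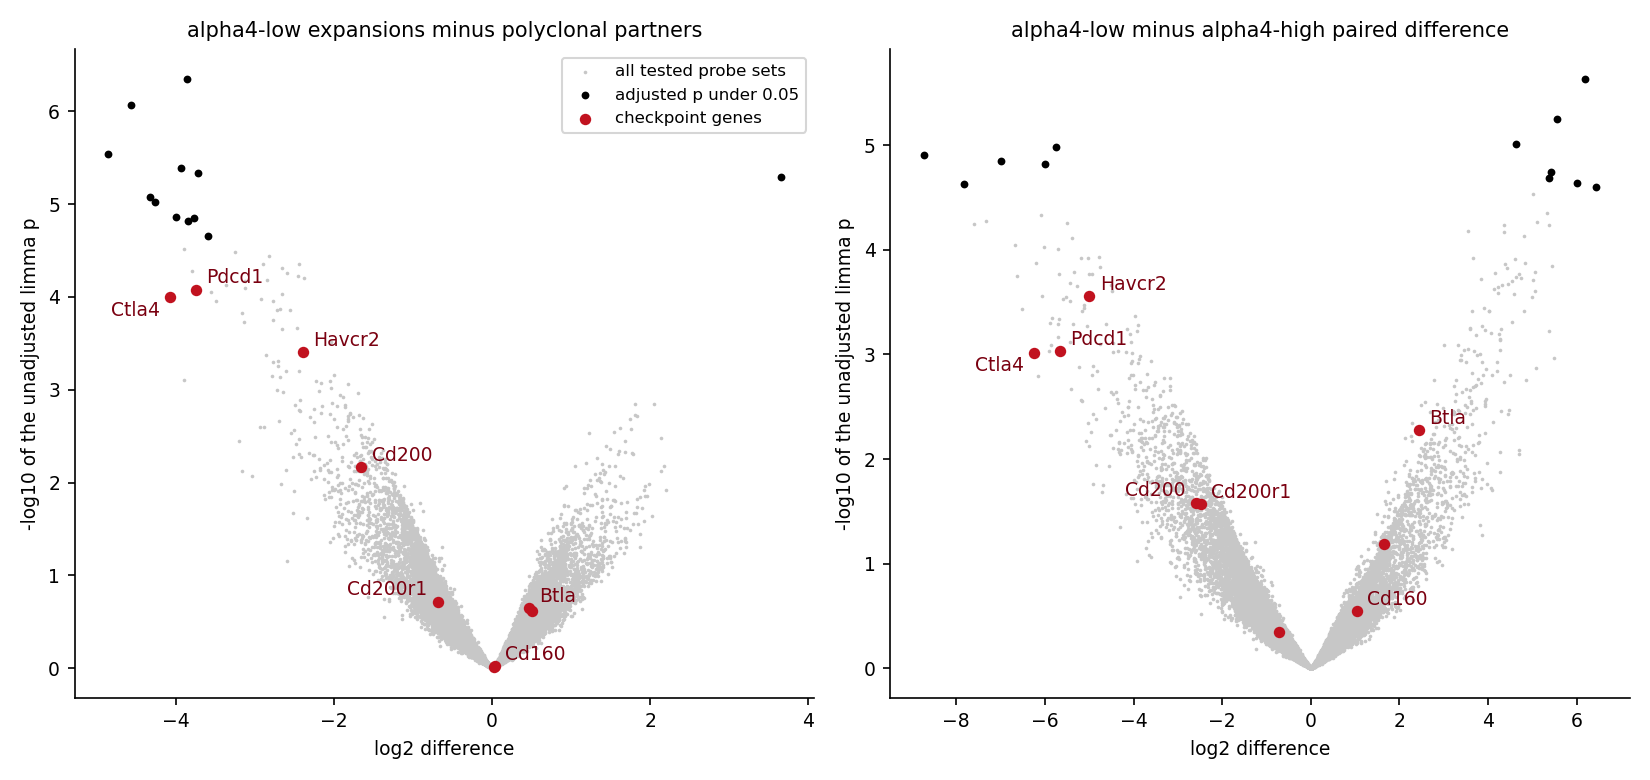
Every tested probe set by log2 difference (x) and limma p-value on a -log10 scale (y), for the alpha4-low comparison and for the difference between alpha4-low and alpha4-high pairs, with all 9 tested member probe sets in red. Ctla4 and Pdcd1 lie far left in the first panel at -4.08 and -3.75, Havcr2 has the lowest member p in the second, and no member is called at an adjusted p of 0.05.

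Genes of the checkpoint pathway outside the receptors were read from lists of known ligands, activating counterparts, downstream signalling genes and regulating transcription factors. Of 13 ligand genes 8 were tested. In limma 0 were called and 1 had an unadjusted p under 0.05 (background 0.0533% and 5.11%), and 6 were lower and 2 higher in the alpha4-low comparison (median -0.41, against -0.07 over all tested probe sets). Cd274, encoding the PD-1 ligand PD-L1, differed by -1.66 (limma adjusted p = 0.965), with 5.44 in expansion 3, against 239 in its partner, and 154 and 250.1 in expansions 2 and 4, against 275 and 189 in their partners. Cd80 and Cd86, encoding the CTLA-4 ligands, had 710 and 928 in expansion 1, against 119 and 204 in its partner, while their alpha4-low differences were -0.92 and -0.53 (the lower limma adjusted p was 0.967). Lgals3, encoding galectin-3, differed by -0.91.

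Among the genes listed as activating counterparts, 9 of 10 were tested. The list name is a grouping and not a statement that each gene is only activating. In limma 0 were called and 1 had an unadjusted p under 0.05 (background 0.0533% and 5.11%), and 7 were lower and 2 higher (median -0.29). Tnfrsf4 and Tnfrsf9, encoding the co-stimulatory receptors OX40 and 4-1BB, differed by -1.10 and -0.83, Cd244a by -1.37 and Cd96 by 0.38, all short of the threshold. Cd28 and Icos, the genomic neighbours of Ctla4, were looked at after their values were seen. Cd28 had 11648 in expansion 1 and 3576, 3702 and 8074 in expansions 2 to 4, against 8668, 3107, 7669 and 5903 in polyclonal samples 1 to 4, and its alpha4-low difference was -0.13. Icos had 22455 in expansion 1 and 7520, 5403 and 5724 in expansions 2 to 4, against 11882, 6373, 9488 and 7782 in polyclonal samples 1 to 4, with a difference of -0.34. Both overlapped between groups, unlike Ctla4.

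Genes acting downstream of the receptors had a median of 0.01. Of 14 genes 13 were tested, and in limma 0 were called and 0 had an unadjusted p under 0.05. The largest differences were -0.99 for Csk, -0.69 for Dok1, 0.63 for Ptpn2 and 0.59 for Bag6, all at limma adjusted p of 0.966 or more.

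Of the transcription factors known to regulate these receptors, 16 of 18 were tested, and 12 were lower and 4 higher in the alpha4-low comparison (median -0.30). At an unadjusted p under 0.05 in limma 5 were lower and 0 higher, against 3.91% lower and 1.2% higher of all tested probe sets. Nr4a2, a nuclear receptor induced by T cell receptor signals, was the single call (background 0.0533%), read by the brightest of its 3 tested probe sets. It had 1299 in expansion 1, against 385 in its partner, and 149, 25.7 and 49.6 in expansions 2 to 4, against 553, 976 and 1418 in their partners. It fell by 3.85 on the log2 scale over the alpha4-low pairs with an SE of 0.56 (limma adjusted p = 0.0309), but the list held 0 calls under 5 of its 15 alternative settings, gene means among them. Expansion 3 was not above its background of 61.9, so this fall is not a measured size. Nr4a1 and Nr4a3, of the same family and list, differed by only -0.17 and -0.34 (limma adjusted p = 0.997 and 0.989). Tox2 differed by -2.72 (limma adjusted p = 0.0860), Maf by -2.72 (limma adjusted p = 0.263), and Batf by -2.01 and Tox by -1.98, neither past the threshold. Batf had 13.4, 29.2 and 145.8 in expansions 2 to 4, against 199.9, 225.1 and 125.9 in their partners. Its expansions 2 and 3 were not above background, and pair 4 was higher in the expansion. Tox, encoding a factor that sustains PD-1 in exhausted cells, had 7563 in expansion 1, against 1967 in its partner, and 458, 176 and 794 in expansions 2 to 4, against 684, 5833 and 1013 in their partners. Its log2 difference was -5.02 in pair 3 but -0.57 and -0.35 in pairs 2 and 4, so the -1.98 rests mostly on pair 3.

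**Figure D4:**
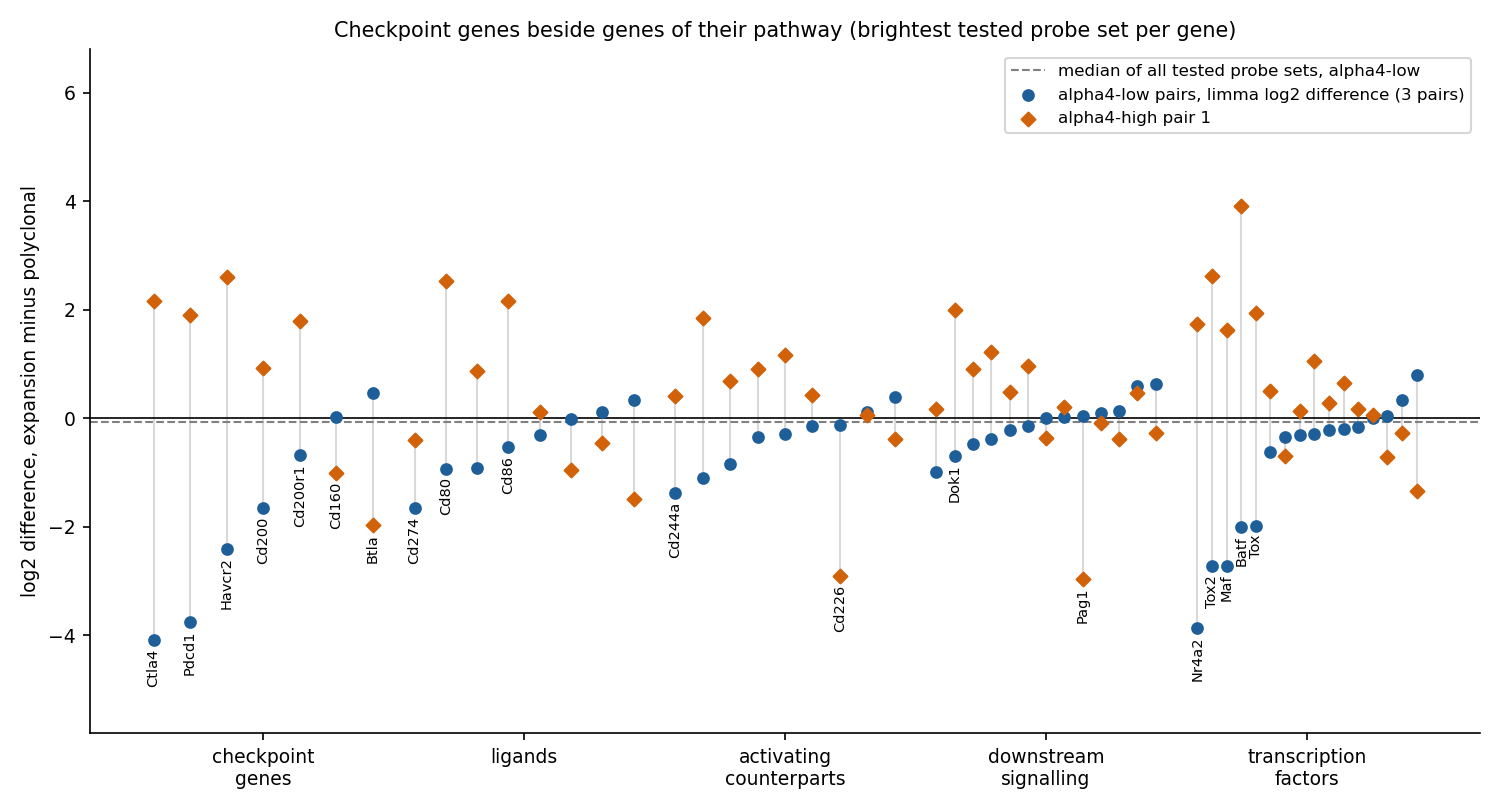
Log2 difference, expansion minus polyclonal, of checkpoint genes and of 4 pathway lists, with the limma estimate over the 3 alpha4-low pairs and the value of the alpha4-high pair joined by a line for each gene. Ctla4 and Pdcd1 are the lowest checkpoint genes in the alpha4-low pairs, Nr4a2 is at -3.85, and Havcr2 is at 2.60 in the alpha4-high pair; points that rest on signals under background are not measured sizes.

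Over the 8 arrays, the genes whose log2 signals ran most like each member were found by Pearson correlation among all tested probe sets, as a description only, since the arrays share mice and 1 subclass sample. Pdcd1 ran with Mxra8 (0.979), Selenok (0.972) and Zadh2 (0.969), and Ctla4 with Maf (0.972), Tnfsf13b (0.965) and Epha3 (0.965). Havcr2 ran with Asap1 (0.975), Pqlc3 (0.967) and D930003E18Rik (0.965). Btla ran with Pou2af1 (0.976), Nrp2 (0.975) and Smad1 (0.970), and Cd160 with Pde7a (0.988), Dgkq (0.981) and Pabpc1 (0.979). Cd200 ran with Casp4 (0.970), Tox2 (0.964) and Maf (0.962), and Cd200r1 with Synj2 (0.985), Tiam1 (0.971) and Slc35a4 (0.970). Maf was thus among the nearest for Ctla4 and Cd200 alike.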

How the data were processed

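RNA from sorted CD8 T cells of 4 mice was measured on 8 Affymetrix mouse genome arrays. Isolation ran in parallel for all samples and amplification was double, per the labels' protocols. The deposited values are linear intensities made by the authors with MAS5, per the submitters' processing notes, and each array has a 2% trimmed mean of 500, which hides changes in total RNA per cell. Other steps are not given in the sources used here. Replicate numbers came from the sample titles, since the descriptions number some samples otherwise.

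Signals were taken as log2(value + 5), which shrinks differences of dim probe sets. Differences that involve a signal under background are not measured sizes. Of 45101 probe sets, 22518 with a mean log2 value above the median (a signal of about 45.3) were tested, without the 64 controls. The model was a linear fit in limma 3.58.1 under R 4.3.3 (lmFit, eBayes with an intensity trend), with a coefficient for each subclass and mouse as a fixed block, leaving 2 residual degrees of freedom. Fewer remain with the purity covariate or without an alpha4-low pair. The alpha4-low coefficient and the difference between subclasses were tested two-sided, with Benjamini-Hochberg adjustment over all tested probe sets and a threshold of 0.05. The series' design pairs the samples of a mouse. Their deviations from the group means correlated at 0.374, 0.0771, 0.214 and 0.338 in pairs 1 to 4, and at -0.347 to 0.301 between samples of different mice. The own partner was not the closest match for expansion 2 (0.131 with polyclonal sample 4) or expansion 3 (0.301 with polyclonal sample 2). The model was tested on simulated data with 200 changed probe sets.

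Background was the 95th percentile of 27 unspiked bacterial probe sets per array, and folds against dimmer signals are lower bounds set by it. Gene symbols came from the platform annotation, by probe sets with 1 gene. The text names every member probe set, list members that passed or had the 4 largest alpha4-low differences, the 3 genes nearest each member by correlation, and Itga4. Nr4a1 and Nr4a3 are given beside Nr4a2. The members and the gene lists were chosen with earlier results of these data known. Alternatives were the pseudocount, filter, scaling, variance prior, block, purity covariate, gene means, threshold, background level and the omission of each pair; raising signals under background to it was added after seeing the data.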

Additional observations from a re-analysis of the deposited data

Results flagged for a closer look

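Pdcd1 stood out within the polyclonal samples. Polyclonal sample 3 had a signal of 415, against 176, 148 and 177 in polyclonal samples 1, 2 and 4. On the log2(value + 5) scale, the gap to the nearest other sample took 0.8295 of the group's whole range, only just above Dixon's 95% critical value for 4 samples. Of 12 member probe sets tested this way in the 4 polyclonal samples this was the single one, and chance flags about 1 in 20 groups. The same sample was sorted at 66% purity, and the part of purity in its signal was not tested.

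The dim Cd160 probe set 1420067_at was higher in all 3 alpha4-low expansions than in their partners and lower in expansion 1 than in its own. The mean alpha4-low log2 difference exceeded that of pair 1 by 1.77, and this difference was not tested. Expansion 1 and both samples of pair 4 were not above background, so the 1.77 is not a measured size. Signals were 77.2, 71.2 and 31.9 in expansions 2 to 4, against 47.2, 37.4 and 10.6 in their partners, and 27.5 in expansion 1, against 53.9 in its partner.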

How the results depend on the processing

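The alpha4-low differences of Pdcd1, Ctla4, Havcr2, Cd200 and Cd200r1 stayed negative under all 15 alternatives. Their ranges were -4.68 to -1.61, -4.92 to -1.64, -2.82 to -1.73, -2.11 to -1.08 and -0.92 to -0.03, with the smallest size of Pdcd1 and Ctla4 under the purity covariate. The number of members past the threshold, 0 as reported, was 2 with a filter of above background on 3 arrays or with median scaling, 4 at an unadjusted p, 2 at an adjusted p under 0.10, and 0 to 3 when each pair was left out. It was 1 when signals under background were raised to it, an alternative chosen after seeing the data. Over all tested probe sets the alpha4-low calls, 12 as reported, were 33 of 29273 with that filter and 29 of 22518 with median scaling. They were 28 with signals raised to background, and 20, 18, 133 and 148 without pairs 1, 2, 3 and 4. For the difference between subclasses the count of 0 became 2 without the replicate block, 2 with signals raised to background, 6 at an unadjusted p, 1 at an adjusted p under 0.10 and 1 to 3 when each alpha4-low pair was left out. Subclass calls over all 22518 tested probe sets, 12 as reported, rose to 143 without the block and 70 with raised signals. They rose to 64, 266 and 215 without pairs 2, 3 and 4. The replicate block changed no member call in the alpha4-low comparison.

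Signs turned for Btla and 2 Cd160 probe sets, whose alpha4-low differences were 0.46, 0.03 and 0.03 and whose subclass differences, for the Cd160 probe sets, were 1.04 and -0.72. With the purity covariate the alpha4-low difference of Btla was -0.041, that of Cd160 1420066_s_at -0.94 and that of Cd160 1420396_at -0.26, and the subclass difference of 1420066_s_at was -0.27. Without the replicate block the subclass difference of 1420396_at was 0.20. When each pair was left out, the alpha4-low difference of 1420066_s_at lay between -0.54 and 0.38, and that of 1420396_at between -0.22 and 0.22. The median of the CD28 and PD-1 type receptors was -1.61 with the purity covariate, that of the ligands was 0.25 with it and -0.061 with gene means, and that of the activating counterparts was -0.13 with it or with median scaling and -0.42 to -0.10 when each pair was left out. The cause of these changes was not tested. Median scaling put the median of all tested probe sets at 0.097 in place of -0.07 in the alpha4-low comparison, and at 0.18 in place of -0.10 in the subclass difference.

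Signals near background limit Pdcd1, Havcr2 and Lag3 most. With the maximum of the bacterial probe sets as background, 67 of 96 member values were above it, in place of 74. Over all probe sets the alpha4-low calls numbered 0 to 148 across settings, against 12 as reported. Pair 1 has no replicate, and leaving it out gave the alpha4-low pairs alone.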
